A study of Canis lupus familiaris with 10 samples.

Results

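miR-142 and miR-223 are a pair of miRNAs known from cells of the blood. They were taken by name as the rows cfa-miR-142 and cfa-miR-223 of the count table, by a rule that uses no measured value, and they are 2 of the 320 miRNAs listed. Both passed the filter on low counts and are among the 247 miRNAs tested. The table gives each under a name without an arm, so that the strand of the hairpin that was counted is not known. Their mature sequences are not printed, because no file used here holds them.

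The series holds small RNA libraries from the lymph nodes of 10 dogs, fresh-frozen, with 1 library per dog. The DLBCL group (DLBCL1 to DLBCL6) comes from 6 pet dogs of several breeds and of both sexes with diffuse large B-cell lymphoma, whose affected peripheral nodes were removed surgically under anesthesia. Their ages are not given in the sources used here. The Healthy group (Healthy2 to Healthy5) comes from 4 purpose-bred research dogs, all young female hound crosses, which were euthanised in teaching courses and whose nodes were histologically normal. No group received a treatment as part of the design. The origin of the dogs follows the diagnosis and cannot be told apart from it, all Healthy dogs are female where the DLBCL dogs are of both sexes, and the ages could not be compared. The comparison asks whether the miRNA content of a node with DLBCL differs from that of a healthy node.

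miRNAs are short RNAs that guide a silencing complex to messenger RNAs and so lower the output of their targets. miR-142 is made in nearly all cells of the blood lineages and hardly outside them, and its gene is a known site of mutation in human B-cell lymphoma. miR-223 is typical of the myeloid lineage, above all of neutrophils and monocytes, where PU.1 and C/EBP factors drive its gene, and it is also carried by platelets. A lymph node holds mostly lymphocytes, and a DLBCL node mostly malignant B cells, beside fewer myeloid cells, stroma and blood. In a whole node, fewer cells of a type and less of the miRNA per cell cannot be told apart.

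In an annotation of the dog genome (UU_Cfam_GSD_1.0, used here for names and neighbours only, since the authors mapped to another assembly, CanFam3.1), the 2 genes lie apart. MIR142 is on chromosome 9 between TSPOAP1 and an uncharacterised lncRNA gene. The gene beyond TSPOAP1 is MPO, which encodes the myeloperoxidase of neutrophils. MIR223 is on chromosome X between VSIG4, which encodes a complement receptor of macrophages, and a pseudogene. Among the 5 nearest genes on each side of either gene, 0 were miRNA genes.

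Between 10686441 and 25784861 reads were counted on miRNAs per DLBCL library and between 30432969 and 34709421 per Healthy library. A single miRNA, miR-148a, took 17.8 to 39.0% of these reads in DLBCL and 51.5 to 73.6% in Healthy. Levels are therefore given as CPM, the reads of a miRNA scaled to a common library size, after the sizes were adjusted by TMM, edgeR's trimmed mean of M-values, which lessens the pull of a few very abundant miRNAs. By the study's own figures for base quality, DLBCL1, DLBCL2, DLBCL3 and DLBCL5 form a group of higher and DLBCL4, DLBCL6 and the 4 Healthy libraries a group of lower read quality. The higher group holds no Healthy library, so values within a quality group are given for the lower one alone.

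miR-142 was abundant in all 10 nodes and, in TMM-adjusted CPM, varied little between them. Without the TMM adjustment its range was wider, as given below. In the Healthy nodes it measured 4278 CPM in Healthy2, 5439.6 in Healthy3, 5461 in Healthy4 and 3382 in Healthy5. In DLBCL it measured 5013 CPM in DLBCL1, 4239 in DLBCL2, 4234 in DLBCL3, 5210.2 in DLBCL4, 7521 in DLBCL5 and 6155 in DLBCL6. DLBCL5 and DLBCL6 lay above the highest Healthy node, the other 4 DLBCL nodes lay within the Healthy range, and 0 lay below it. The mean of the DLBCL nodes was 5395 ± 1262 CPM (SD, n = 6) and that of the Healthy nodes 4640.0 ± 1005 CPM (SD, n = 4).

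The difference between the groups was small against the spread between dogs. The log2 fold change of miR-142, DLBCL over Healthy, was 0.22 with a standard error of 0.31 (adjusted p = 0.697, from the quasi-likelihood test of edgeR, corrected by Benjamini-Hochberg for all 247 miRNAs). As a fold this is 1.16, with a 95% interval of 0.734 to 1.84. The exact two-sided permutation test over the 210 ways of splitting the 10 libraries gave a difference in mean log2 CPM of 0.21 (p = 0.352). The standard error was among the lowest in the table, since only 3 of the 247 tested miRNAs had a smaller one, and the median was 0.590. The interval holds both a fall and a rise, so that no difference was detectable in these libraries.

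A miRNA was called where the adjusted p-value from edgeR was under 0.05 and the fold change over 2 in either direction. Of the 2 miRNAs, 0 were called, against 14 of the 247 tested (5.67%, 9 higher and 5 lower in DLBCL). The unadjusted p-values from edgeR were 0.491 for miR-142 and 0.902 for miR-223, while 66 of the 247 miRNAs had one under 0.05. DESeq2 called neither. The groups overlapped in CPM for both miRNAs, whereas they did not for 32 of the 247 (13.0%).

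miR-223 was far rarer and uneven among the DLBCL nodes. In the Healthy nodes it measured 16.9 CPM in Healthy2, 38.6 in Healthy3, 28.2 in Healthy4 and 26.6 in Healthy5. In DLBCL it measured 36.4 CPM in DLBCL1, 22.2 in DLBCL2, 3.95 in DLBCL3, 88.3 in DLBCL4, 18.04 in DLBCL5 and 7.56 in DLBCL6. DLBCL4 lay above every Healthy node, DLBCL3 and DLBCL6 lay below every Healthy node, and the other 3 DLBCL nodes lay within the Healthy range. Set against the geometric mean of the Healthy nodes, DLBCL4 held 3.33 times as much miR-223, DLBCL6 0.288 times and DLBCL3 0.152 times.

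**Figure D1:**
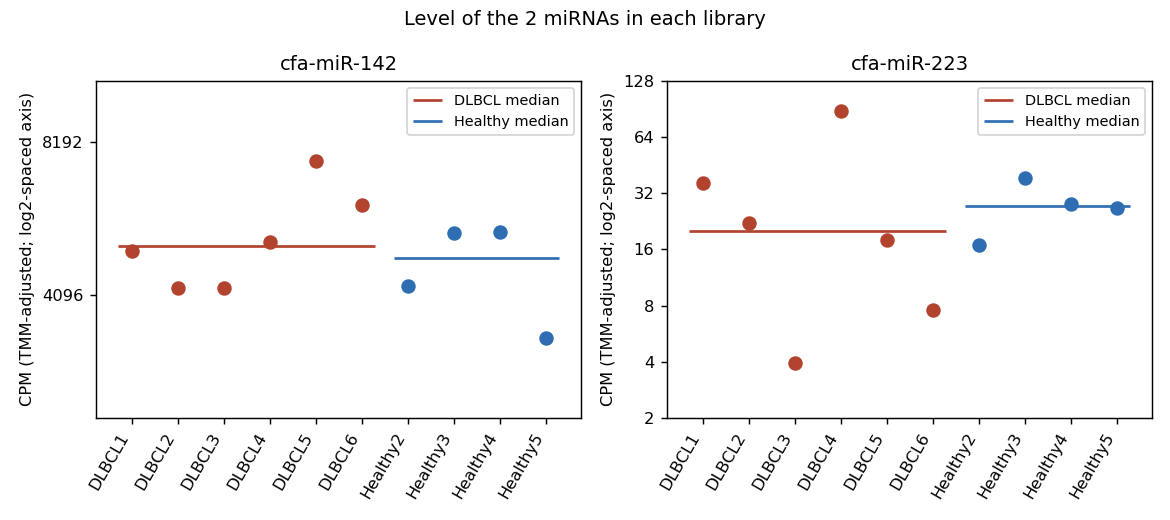
CPM of miR-142 (left) and miR-223 (right) in each library on log2-spaced axes that differ between the panels, with DLBCL in red, Healthy in blue and a line at each group's median. miR-142 lies between 3382 and 7521 CPM in all 10 libraries, while miR-223 runs from 3.95 CPM in DLBCL3 to 88.3 CPM in DLBCL4, with the 4 Healthy libraries between 16.9 and 38.6 CPM.

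The mean level of miR-223 was 29.4 ± 31.1 CPM over the DLBCL nodes (SD, n = 6) and 27.6 ± 8.88 CPM over the Healthy nodes (SD, n = 4), and the medians were 20.1 and 27.4 CPM. The log2 fold change from edgeR was 0.09 with a standard error of 0.73 (adjusted p = 0.948), and 78 of the 247 tested miRNAs had a larger standard error. As a fold this is 1.07, with a 95% interval of 0.354 to 3.21. The interval is wide enough to hold both a rise and a fall of over 2-fold. The difference in mean log2 CPM had the other sign, -0.52 (exact two-sided permutation test over 210 splits, p = 0.557). edgeR compares mean levels, to which DLBCL4 adds most, and without DLBCL4 its log2 fold change was -0.63 (adjusted p = 0.477). No direction can be given for miR-223.

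The reads behind the values differ between the 2 miRNAs. miR-142 rested on 59902 to 248421 reads per library in DLBCL and 75208 to 148268 in Healthy, which is 0.349 to 1.25% and 0.217 to 0.482% of the miRNA reads. miR-223 rested on 435, 567, 84, 2504, 277 and 305 reads in DLBCL1 to DLBCL6 and on 297, 1052, 537 and 909 in Healthy2 to Healthy5. Its 95% Poisson interval had a half-width of 3.94% of the count in DLBCL4 and 22.0% in DLBCL3, well under the differences between dogs. These intervals cover counting error only, because PCR copies of a molecule are counted as separate reads. Ranked by reads within a library, miR-142 stood between place 14 and 26 and miR-223 between 103 and 170.

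Within a node the 2 miRNAs were set against each other as a ratio of their reads, which needs no library size. Ligation and amplification act differently on different miRNAs, so that such a ratio compares libraries and is no ratio of molecules. For each read of miR-223 the Healthy nodes held 253 reads of miR-142 in Healthy2, 141 in Healthy3, 193 in Healthy4 and 127 in Healthy5. The DLBCL nodes held 138 in DLBCL1, 191 in DLBCL2, 1064.5 in DLBCL3, 59.0 in DLBCL4, 416 in DLBCL5 and 813 in DLBCL6. DLBCL3, DLBCL5 and DLBCL6 lay above the Healthy range and DLBCL4 below it. The mean log2 ratio was higher in DLBCL by 0.74 (exact two-sided permutation test, p = 0.405), and it was 0.35 in the lower quality group (exact permutation, p = 0.8).

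The spread between dogs set the 2 miRNAs apart from each other in DLBCL. The SD of log2 CPM of miR-142 was 0.32 over the 6 DLBCL libraries and 0.33 over the 4 Healthy libraries. Only 4 of the 247 tested miRNAs had a smaller SD in DLBCL, where the median over all was 1.07, and 57 had a smaller SD in Healthy, where the median was 0.54. For miR-223 the SD was 1.59 in DLBCL, with 52 miRNAs above it, and 0.49 in Healthy, with 138 above it. In CPM, the highest DLBCL library held 1.78 times the miR-142 of the lowest and 22.3 times the miR-223, against 1.61 and 2.28 times in Healthy. These are descriptions of 6 and 4 dogs, and no test of the spread was made.

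**Figure D2:**
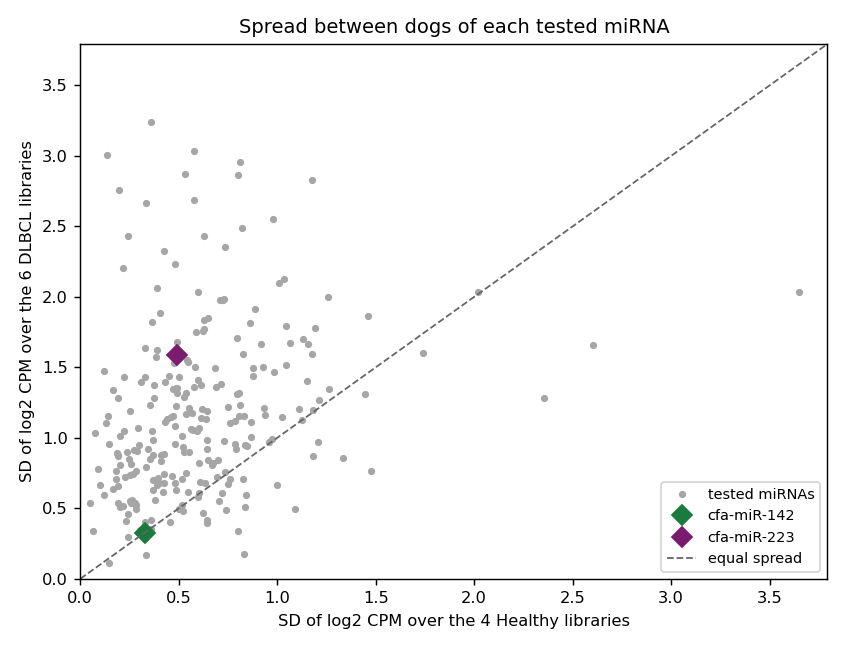
Each point is 1 of the 247 tested miRNAs, with the SD of its log2 CPM over the 4 Healthy libraries on the x axis and over the 6 DLBCL libraries on the y axis, and the dashed line marks equal spread. miR-142 (green, 0.33 and 0.32) lies near the line at the low end, and miR-223 (purple, 0.49 and 1.59) lies above it.

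The low spread of miR-142 depends on the scaling. With library sizes set by the total of miRNA reads, its SD in DLBCL was 0.65 and 34 miRNAs had a smaller one, and with DESeq2's size factors it was 0.25 with 1 smaller. When each DLBCL library was left out in turn, the number of miRNAs with a smaller SD ran from 3 without DLBCL5 to 13 without DLBCL3. The SD of miR-223 in DLBCL was 1.86 with the total of miRNA reads and 1.54 with DESeq2's size factors. It was 1.27 without DLBCL4 and 1.303 without DLBCL3, and 1.63 to 1.77 without any one of the other 4 libraries.

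The scaling also bears on the level of miR-142 between the groups. The authors' TPM divides each count by the sum of all miRNA reads in the library, to which miR-148a adds a larger share in Healthy. In TPM, miR-142 ran from 3488 in DLBCL3 to 12508 in DLBCL6 and from 2167 in Healthy2 to 4816 in Healthy3, and 5 of the 6 DLBCL libraries lay above the highest Healthy library. The difference in mean log2 TPM was 0.92 (exact two-sided permutation test, p = 0.0429). With the total of miRNA reads in edgeR the log2 fold change was 0.98 (unadjusted p = 0.0402, adjusted p = 0.132), but the median of all 247 miRNAs then stood at 0.82, where it was 0.13 with TMM. Relative to that median miR-142 lay 0.16 higher with total reads and 0.09 higher with TMM. limma on log2 TPM, with 1 added, also gave a log2 fold change of 0.92 (unadjusted p = 0.0450, adjusted p = 0.157), which is 0.37 above a median of 0.55. The offset from the median was 0.32 in the lower quality group and 0.30 with the quality group as a covariate, which both set DLBCL4 and DLBCL6 against Healthy. With the total taken without miR-148a the log2 fold change of miR-142 was 0.13 (edgeR, adjusted p = 0.855).

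The TPM of miR-223 ran from 3.26 in DLBCL3 to 154 in DLBCL4 and from 8.56 in Healthy2 to 34.2 in Healthy3. Its difference in mean log2 TPM was 0.18 (exact two-sided permutation test, p = 0.862). With the total of miRNA reads in edgeR its log2 fold change was 0.93 (adjusted p = 0.506), and relative to the median of all tested miRNAs it was 0.11 with total reads and -0.04 with TMM. This offset was 0.82 in the lower quality group and 0.81 with the quality group as a covariate. It was -0.34 with limma on log2 TPM and -0.81 in edgeR without DLBCL4.

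**Figure D3:**
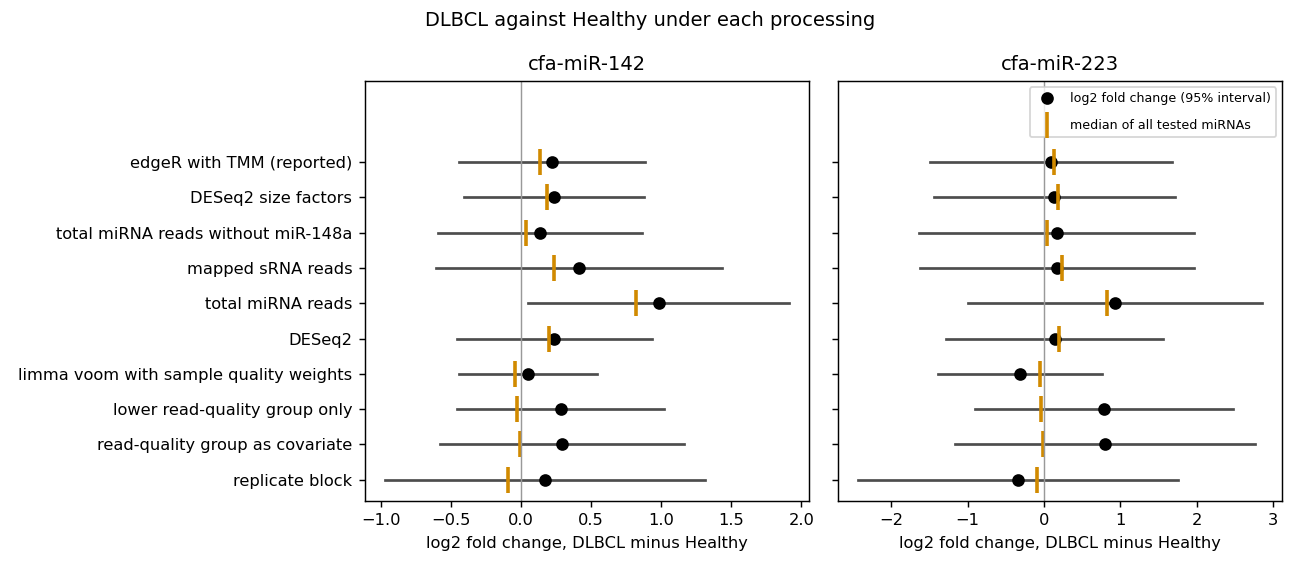
Log2 fold change (DLBCL minus Healthy, x axis) of miR-142 (left) and miR-223 (right) under 10 ways of processing the counts, as black points with 95% intervals, and the median of all tested miRNAs under the same processing as orange bars. The x axes differ between the panels. Of the 10 intervals of miR-142 drawn, that for total miRNA reads clears 0, where the median of all miRNAs is 0.82, and the 10 intervals of miR-223 hold 0.

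Within the lower quality group, which sets only DLBCL4 and DLBCL6 beside Healthy, the log2 fold change from edgeR was 0.28 for miR-142 (adjusted p = 0.625) and 0.78 for miR-223 (adjusted p = 0.538). With the quality group as a covariate the edgeR values were 0.29 (adjusted p = 0.776) and 0.80 (adjusted p = 0.713). Because the higher group holds no Healthy library, that fit also sets DLBCL4 and DLBCL6 against Healthy and is no separate check. The lower group holds DLBCL4, the library with the most miR-223, and DLBCL6, one of the pair below the Healthy range. DLBCL3, the lowest, is in the higher group.

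No relation between the levels of the 2 miRNAs over dogs was detectable. Over the 10 libraries Pearson's r of log2 CPM was 0.04 (p = 0.908) and Spearman's rho 0.12 (p = 0.758, permutation tests with 100000 resamples). Over the 6 DLBCL libraries alone r was 0.08 (exact permutation, p = 0.896) and rho 0.14 (exact permutation, p = 0.803). Without DLBCL5 and Healthy5, the libraries farthest from the median of miR-142, r was 0.24 (permutation, p = 0.568) and rho 0.31 (permutation, p = 0.462). In the lower quality group r was -0.12 (exact permutation, p = 0.808). With total miRNA reads in place of TMM, r over the 10 libraries was 0.51 (permutation, p = 0.127), the highest of the alternatives run.

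miR-142 was next set against 3 miRNAs of lymphocytes and immune activation, and miR-223 against miR-451 of red blood cells, which with the ratio above makes 5 ratios of reads. That miR-150 and miR-146a are lower and miR-451 higher in DLBCL was known from earlier results of these data, so that ratios with them are no independent evidence of a direction. How many ratios with other miRNAs would separate the groups was not counted. Adjusted p-values of ratios are by Benjamini-Hochberg over the 5. With 210 splits the smallest p that the exact permutation test allows is 0.00476.

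miR-150 marks mature resting lymphocytes and restrains the transcription factor MYB. For each of its reads the Healthy nodes held 1.03 reads of miR-142 in Healthy2, 0.611 in Healthy3, 0.359 in Healthy4 and 0.993 in Healthy5. The DLBCL nodes held 2.44 reads in DLBCL3, the lowest, and 8.01 in DLBCL6, the highest, with a median of 6.81. All 6 lay above every Healthy node. The mean log2 ratio was 3.06 higher in DLBCL (exact permutation test, p = 0.00476, adjusted p = 0.0119). The level of miR-150 itself was lower in DLBCL, at 1009 ± 488 CPM (SD, n = 6) against 7916 ± 5434 CPM in the Healthy nodes (SD, n = 4), a log2 fold change of -2.97 (edgeR, adjusted p = 0.00687). That call was lost without Healthy4, the node with the most miR-150 (-2.45, edgeR, adjusted p = 0.0551), and with the replicate number as a block (-2.73, edgeR, adjusted p = 0.0709). The replicate numbers come from the library titles and were not taken as pairs of dogs.

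miR-146a is induced by NF-kB and dampens signalling through TRAF6 and IRAK1. The Healthy nodes held between 0.351 reads of miR-142 per read of miR-146a in Healthy5 and 0.501 in Healthy3. The DLBCL nodes held between 0.963 in DLBCL2 and 2.50 in DLBCL3, with a median of 1.42, and all 6 lay above the Healthy range. The mean log2 ratio was 1.77 higher in DLBCL (exact permutation test, p = 0.00476, adjusted p = 0.0119). The log2 fold change of miR-146a was -1.46 (edgeR, adjusted p = 0.0397), at 3660 ± 1493 CPM against 10051 ± 1122 CPM (SD, n = 6 and 4). Its call held in 12 of 23 alternatives and was lost, among others, without any one of the Healthy libraries (edgeR, adjusted p from 0.0641 to 0.144).

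miR-155 comes from the BIC transcript and is induced when B cells and macrophages are activated. The Healthy nodes held 0.767 to 0.994 reads of miR-142 per read of miR-155. The DLBCL nodes held 0.341 in DLBCL1, 1.299 in DLBCL2, 0.808 in DLBCL3, 0.794 in DLBCL4, 0.629 in DLBCL5 and 1.68 in DLBCL6, so that 2 lay above and 2 below the Healthy range. The mean log2 ratio differed by -0.04 (exact permutation test, p = 0.952, adjusted p = 0.952). The log2 fold change of miR-155 was 0.44 with a standard error of 0.47 (edgeR, adjusted p = 0.568).

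miR-451, which is cut by Argonaute rather than Dicer and fills maturing red blood cells, far outnumbered miR-223. The Healthy nodes held 50.9 reads of miR-451 per read of miR-223 in Healthy2, 23.2 in Healthy3, 27.6 in Healthy4 and 27.5 in Healthy5. The DLBCL nodes held 926 in DLBCL1, 1286 in DLBCL2, 3585 in DLBCL3, 51.6 in DLBCL4, 1259 in DLBCL5 and 1198 in DLBCL6. DLBCL4 lay just beyond Healthy2 and far from the other 5 DLBCL nodes. The mean log2 ratio of miR-223 to miR-451 differed by -4.76 (exact permutation test, p = 0.00952, adjusted p = 0.0159), and by -3.01 in the lower quality group, where 15 splits allow no p under 0.0667. The log2 fold change of miR-451 was 4.53 (edgeR, adjusted p = 0.00123), where that of miR-223 was 0.09 and did not pass the test.

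**Figure D4:**
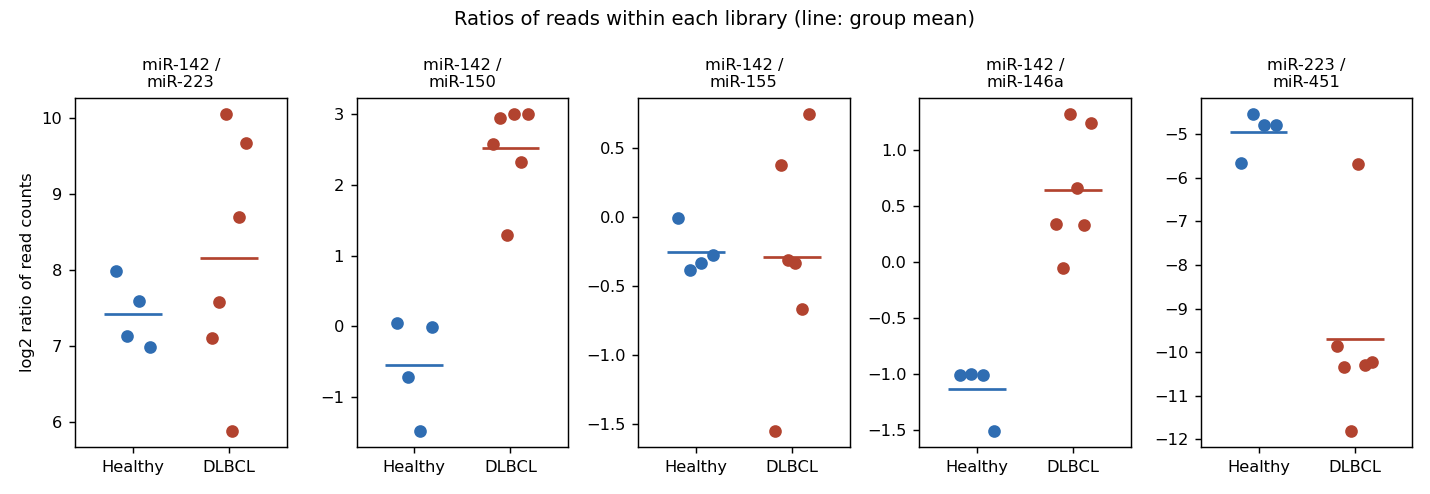
Log2 ratios of reads within each library for the 5 pairs, with Healthy in blue, DLBCL in red, a line at each group's mean and a y axis of its own for each pair. The groups do not overlap for miR-142 over miR-150, miR-142 over miR-146a and miR-223 over miR-451, and in the last DLBCL4 (-5.69) lies just beyond the lowest Healthy library (-5.67). The partners in these pairs were known beforehand to differ between the groups. In CPM, 32 of the 247 tested miRNAs (13.0%) did not overlap between the groups.

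Lists of miRNAs of 5 kinds of cells were set beside the pair. They were drawn up with earlier results of these data known and are described by counts and medians. Over all 247 miRNAs the median log2 fold change was 0.13 and 14 were called (5.67%). Against that share, 0 calls in a list this short says little about the list. Of 7 leukocyte miRNAs, all tested, 0 were called higher and 2 lower (miR-150 and miR-146a), 2 had positive and 5 negative values, and the median log2 fold change was -0.77, which became -0.05 with total miRNA reads and -0.07 with limma on log2 TPM. Their summed level ran from 8560 CPM in DLBCL6 to 22765 CPM in DLBCL5 and from 19420 to 36782 CPM in Healthy. The 2 with a positive value were miR-155 at 0.44 and miR-146b at 0.95 (edgeR, adjusted p = 0.568 and 0.286). miR-146b was named here after its values were seen. The count of calls ran from 0 without Healthy4 to 3 without DLBCL4.

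Of 4 miRNAs tied to monocytes and macrophages, the lineage nearest to miR-223, all were tested and 0 were called, with a median log2 fold change of 0.34. That median was 1.01 with total miRNA reads, -0.27 when each library had to hold 10 reads of a miRNA, -0.10 with the replicate block and -0.03 with limma voom. The value of -0.27 is over miR-21 and miR-132 alone, since the other members did not pass that filter. miR-21, which many activated and malignant cells also make, carried nearly all of the sum and measured 136000 ± 64835 CPM in DLBCL against 125630 ± 8765 CPM (SD, n = 6 and 4, log2 fold change 0.11, edgeR adjusted p = 0.859). DLBCL4, with the most miR-223, had the least miR-21 at 60026 CPM and the least miR-132 at 3.95 CPM, where the other 9 libraries held 7.68 to 22.4 CPM. miR-132, which is induced by CREB, had a log2 fold change of -0.20 (edgeR, adjusted p = 0.836). miR-147, which Toll-like receptor signals induce in macrophages, had one of 0.56 (edgeR, adjusted p = 0.705) and measured 0.423 CPM in DLBCL4 and 0.424 CPM in DLBCL3, the lowest pair, against 1.37 to 3.20 CPM in Healthy. The fourth member, miR-424, named here after its values were seen, went the other way, with 0.953 CPM in DLBCL4 against 0.263 to 0.683 CPM in Healthy. Such values of miR-147 and miR-424 rest on few reads, and neither miRNA held 10 reads in every library.

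Of 4 red blood cell miRNAs, 3 were called higher and 0 lower, and the median log2 fold change was 4.70. miR-486 and miR-486-3p, the latter named as an arm of the former, had log2 fold changes of 4.87 and 4.87 (edgeR, adjusted p = 0.0397 for both) with near-equal values, so that they may share reads and count as 1 signal. The summed level ran from 873 to 1278 CPM in Healthy and from 5740 CPM in DLBCL4 to 48886 CPM in DLBCL3. For this sum the ends in DLBCL were the reverse of those of miR-223, which was highest in DLBCL4 and lowest in DLBCL3. The sum counts miR-486 and miR-486-3p separately, at 17490 and 17133 CPM in DLBCL3. Taken singly, miR-451 was lowest in DLBCL4 at 4563 CPM but highest in DLBCL1 at 33752 CPM. miR-486 was highest in DLBCL3 but lowest in DLBCL6 at 339.5 CPM. miR-144, named here after its values were seen, was lowest in DLBCL3 at 2.35 CPM, as miR-223 was. The red blood cell miRNAs move with the group, and the part of blood in the values of miR-142 and miR-223 was not tested. Only 1 of the 4 was called without DLBCL1, Healthy2, Healthy3 or Healthy4, each left out alone, and the median was 2.44 in the lower quality group.

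Of 8 miRNAs of stroma and vessels, all tested, 0 were called, 1 had a positive value and the median log2 fold change was -0.52, which became 0.30 with total miRNA reads. miR-99a, miR-143 and miR-10b led the list by mean CPM, with log2 fold changes of -0.06, -0.07 and 0.20 (edgeR, adjusted p = 0.972, 0.939 and 0.853). The rest of the list was lower in DLBCL without being called, with log2 fold changes from -1.42 to -0.30. Of 6 epithelial miRNAs, 2 were tested and 0 called, with a summed level of 10.5 to 26.5 CPM in Healthy and 12.7 to 112 CPM in DLBCL, the highest in DLBCL3. miR-200c and miR-141, which keep the epithelial repressor ZEB1 low, had log2 fold changes of 1.07 and -0.18 (edgeR, adjusted p = 0.360 and 0.859). No list was at 0 throughout, and the tested miRNAs of every list were measured in every library, so that their presence does not bear on the tissue label.

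**Figure D5:**
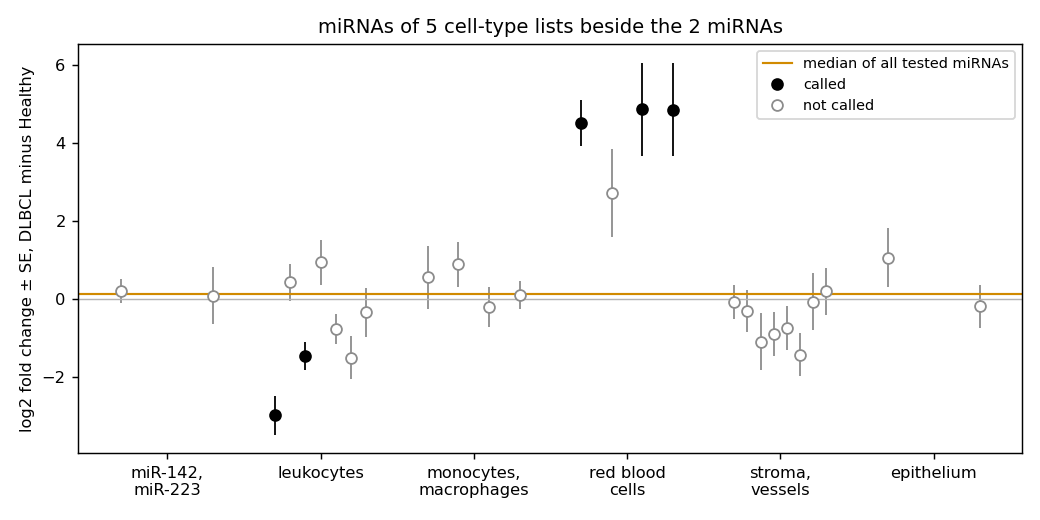
Log2 fold change (DLBCL minus Healthy) with its standard error for miR-142 and miR-223 at the left and for the tested miRNAs of the 5 lists, filled where called, with an orange line at the median of all tested miRNAs (0.13). miR-142 (0.22) and miR-223 (0.09) lie near that line, while 3 red blood cell miRNAs lie above 4 and miR-150 lies at -2.97.

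The miRNAs whose levels over the 10 libraries were most like those of miR-142 reached no r over 0.8. They were miR-1307 (r = 0.71), miR-1843 (r = 0.69) and miR-499 (r = 0.67), and each, like miR-142, was highest in DLBCL5. miR-1307 ran from 16.4 to 384 CPM and miR-499, which lies in an intron of the myosin gene MYH7B, from 468 to 3172 CPM, both far wider than miR-142. Their rank correlations with miR-142 were lower, at 0.49, 0.38 and 0.56.

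For miR-223, 2 miRNAs passed 0.8. They were miR-26b (r = 0.88, rho = 0.83), which is encoded in an intron of CTDSP1, and miR-221 (r = 0.84, rho = 0.85), which targets KIT and the cell cycle inhibitor p27, followed by miR-6516 (r = 0.796, rho = 0.71). All 3 were highest in DLBCL4. miR-26b ran from 3049 CPM in DLBCL3 to 8397 CPM in DLBCL4, a narrower range than that of miR-223 in the same direction, and its log2 fold change was -0.07 (edgeR, adjusted p = 0.913). miR-221 was lowest in DLBCL5 at 126 CPM and highest in DLBCL4 at 445 CPM, with a log2 fold change of -0.06 (edgeR, adjusted p = 0.946). These correlations describe 10 libraries that share their depth and scaling, were picked as the highest among all other tested miRNAs and carry no test.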

How the data were processed

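Small RNA was measured in 10 lymph nodes, 1 library per dog. The authors cleaned the reads, mapped them with Bowtie 0.12.9 (CanFam3.1 per the labels), removed repeats and other RNA classes and counted the rest on known miRNAs with miRDeep2. They deposited read counts without normalization, and TPM, which differed from the count divided by the sum over the listed miRNAs, on the same scale, by at most 4.55e-05. Mapping was not repeated. Groups and numbers come from the library titles.

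The counts were tested with edgeR 4.0.16 in R 4.3.3 (filterByExpr by group, TMM, quasi-likelihood test), with the study's thresholds. log2 CPM has a prior count of 2. Ratios have 0.5 reads added to each count and were tested in Python 3.11.15 with scipy 1.17.1. The tests were checked on simulated counts. The biological coefficient of variation was 0.731, so that the spread between dogs and not the depth limits the precision. No 2 libraries of a group were near-identical (smallest chi-squared per degree of freedom 2115). The rule that took the 2 miRNAs by name uses no measured value. Earlier results of these data were nevertheless known when it and the lists were set. By the rule for names, the text names the 2 miRNAs, their ratio partners, the 3 miRNAs most like each, at most 3 per list by mean CPM, and miR-148a. Beyond this rule, miR-424, miR-144 and miR-146b were named after their values were seen. Alternatives were other scalings, filters and tools (DESeq2 1.42.0, limma 3.58.1), read quality, a replicate block and leaving out each library.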

Additional observations from a re-analysis of the deposited data

Results flagged for a closer look

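In groups of 4 to 10 libraries, a value was picked out where its gap to the nearest other value took up more of the group's range than Dixon's 95% critical value. Chance picks about 1 in 20 groups, and 18 groups were examined. DLBCL4 stood apart in the log2 ratio of miR-223 to miR-451, at -5.69 where the other 5 DLBCL libraries lay between -11.81 and -9.86 (gap 0.681 of the range, critical value 0.625). In that library miR-223 was highest and miR-451, at 4563 CPM, lowest of the 6. Healthy5 stood apart in the log2 ratio of miR-142 to miR-146a, at -1.51 where the other 3 Healthy libraries lay between -1.02 and -0.998 (gap 0.966 of the range, critical value 0.829). In Healthy5 miR-142 was lowest of all 10 libraries at 3382 CPM, while miR-146a, at 9645 CPM, was within the Healthy range.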

How the results depend on the processing

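miR-142 kept a positive log2 fold change and was not called in 23 of 23 alternatives, from 0.01 without Healthy5 to 0.98 with total miRNA reads. miR-223 was not called in any of its 24 (edgeR, DESeq2 or limma adjusted p from 0.477 to 0.984), but its sign turned in 5. It was -0.31 with limma voom and sample quality weights, -0.34 with the replicate block and -0.33 without DLBCL4 and DLBCL3, an alternative chosen after seeing the data. Leaving out 1 library gave -0.63 (without DLBCL4) to 0.35 (without DLBCL3), and -0.07 without Healthy2. The log2 ratio of miR-142 to miR-223 stayed positive in 14 of 14, from 0.35 to 1.196. The ratio of miR-142 to miR-155 turned to 0.46 in the lower quality group and 0.016 with the block, with a range of -0.25 to 0.21 on leaving out 1 library (positive without DLBCL1, DLBCL5 or Healthy2). The correlation of the 2 miRNAs was 0.51 with total miRNA reads, -0.16 with DESeq2's size factors, -0.12 in the lower quality group, -0.29 without DLBCL4 and DLBCL3 and -0.18 (without DLBCL3) to 0.21 on leaving out 1 library.

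In the lower quality group and with the replicate block, the ratios were 3.54 and 2.92 for miR-142 to miR-150, 2.08 and 1.70 for miR-142 to miR-146a and -3.01 and -4.59 for miR-223 to miR-451. Their exact permutation p was 0.0667 and 0.125, the smallest that 15 splits and 4 pairs allow. Leaving out 1 library kept them under 0.05. The numbers 2 to 5 occur in both groups, but same-numbered libraries did not deviate together (r from -0.33 to 0.26), so they were not taken as pairs, and 1 of the 4 DLBCL libraries correlated best with its own number. The block moved the calls over all miRNAs from 14 to 1 and gave miR-142 0.17 (edgeR, adjusted p = 0.906). Other counts were 44 with DESeq2, 46 with limma voom, 46 in the lower quality group, 23 with total reads, 7 with the quality covariate, 7 with mapped reads, 8 with DESeq2's size factors and 1 (without Healthy4) to 23 (without DLBCL4) on leaving out 1 library. miR-155 turned to -0.13 with the quality covariate and -0.14 in the lower quality group, which are the same contrast of DLBCL4 and DLBCL6 with Healthy. The cause of these changes was not tested.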

Other observations

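With each group's mean removed, the miRNAs most like miR-223 over the 10 libraries were miR-181a (r = 0.89), miR-26b (r = 0.88) and miR-26a (r = 0.87), and 8 passed 0.8. miR-181a, which tunes antigen receptor signalling in lymphocytes, was lowest in DLBCL3 at 209.6 CPM, as miR-223 was, and highest in Healthy3 at 3737 CPM. miR-26a was also lowest in DLBCL3. For miR-142 they were miR-8858 (r = 0.73), miR-203 (r = 0.66), known from skin epithelium, and miR-1307 (r = 0.66), and 0 passed 0.8.

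With the total of miRNA reads in place of TMM, the likeness to miR-223 was 0.83 for miR-26b, 0.86 for miR-221 and 0.86 for miR-6516, and the likeness to miR-142 was 0.59 for miR-1307, 0.47 for miR-1843 and 0.79 for miR-499. These are values over 10 libraries that share depth and scaling, with no test.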
